A study of Mus musculus with 42 samples.

Results

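Bone-marrow-derived macrophages (BMDM) labelled KO, from mice with a myeloid deletion of Irf5, were compared after 2 h with lipopolysaccharide (LPS) and after 2 h in culture without it (Control). The comparison rests on 6 of the 42 libraries of the series, the 3 labelled KO, LPS, 2 h and the 3 labelled KO, Control, 2 h, and these were chosen by their labels alone. It asks which transcripts the endotoxin raised or lowered within its first hours in cells meant to lack IRF5, a transcription factor that acts below Toll-like receptors.

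The series holds BMDM of both genotypes at 0 h, 2 h and 24 h, without treatment, with LPS or with the fatty acid palmitate, in 14 groups of 3 libraries. Total RNA depleted of ribosomal RNA was sequenced from a stranded low-input kit, and the deposited table gives 1 read count per gene and library. WT denotes wild-type mice. The study's methods describe mice with floxed Irf5 alleles and Cre recombinase under the Lyz2 (LysM) promoter, which is active in myeloid cells and not in macrophages alone. Marrow cells of both genotypes were grown into macrophages in medium conditioned by L929 fibroblasts, a source of colony-stimulating factor 1, and neither the labels nor the methods tie a library to 1 animal, so each p-value measures the spread between libraries only. The labels give no age or sex. The methods describe male mice, whereas Xist, the transcript of the inactive X chromosome, had 1251 to 2227 counts in the 6 libraries and the 14 genes on chromosome Y had 0 counts in all 42.

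The targeted gene was examined first. Irf5 stood at 291, 301 and 309 CPM (read counts scaled to library size, with the libraries aligned by the trimmed mean of M-values, TMM) in the Control libraries labelled KO and at 430.5, 397 and 407 CPM in the LPS libraries labelled KO. Over the series it ranged from 267 to 430 CPM in the 21 libraries labelled KO and from 210 to 389 CPM in the 21 labelled WT. Its count was thus not lower under the KO label. Counts are per gene, so exons removed by Cre could not be viewed separately, and KO is used below as the label of a library and not as a measured loss of Irf5. Lyz2, the lysozyme gene whose promoter drives the Cre, was at 5563, 5065 and 5293 CPM in Control and 5248, 5014 and 5663 CPM with LPS, and the groups overlapped.

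LPS is bound by CD14 and by the receptor complex of TLR4 and MD-2 (Ly96). One signalling branch, through MYD88, releases NF-kappaB and activates MAP kinases, and genes for inflammatory cytokines and chemokines follow within the hour. The other branch, through TICAM1 (TRIF), activates IRF3 and leads to interferon beta, which acts back on the cells and brings a later wave of antiviral genes. Inhibitors of NF-kappaB, suppressors of cytokine signalling and proteins that destroy cytokine mRNAs are induced along with these genes and bound the response.

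The macrophage markers of a list of 10 (such as Csf1r, Adgre1 and Itgam) summed to 11100 to 11900 CPM in the Control libraries and 11900 to 12800 CPM with LPS. The 6 libraries held 2848793 to 5840172 counts, where 3 counts, taken as the limit of what a count of 0 allows, equal 0.514 to 1.05 CPM, and these limits cover counting error only. LPS library 1 was the shallowest and stood apart from LPS libraries 2 and 3 in its counts over genes. The chi-square statistic divided by its degrees of freedom was 9.32 and 7.76 for its pairs, 2.94 between the others and 2.39 to 2.52 among the Control libraries. Its median log2 ratio to Control over the genes raised at least 4-fold was 2.91, beside 2.86 and 2.87 in the others. Those genes were selected by their change in these same libraries, so alike medians were partly built in. The correlation r of its log2 ratios with the LPS effect in WT was 0.655, beside 0.734 and 0.756. Markers of fibroblasts were uneven, and their list of 6 summed to 119, 78.3 and 73.2 CPM in Control and to 3.03, 159 and 6.7 CPM with LPS. Granulocyte precursor markers summed to 64.9 to 125 CPM in Control and 118 to 204 CPM with LPS, and those of B cells, T or NK cells, dendritic cells, mast cells and erythroid cells each to at most 12.3 CPM. In RNA from bulk culture, fewer cells of a type and less RNA per cell cannot be told apart.

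Within 2 h, LPS raised 1711 of the 11624 genes tested (14.7%) and lowered 1065 (9.16%) in edgeR's quasi-likelihood test at an adjusted p under 0.05, which is the meaning of called below. The change was at least 2-fold upwards in 603 genes (5.19%) and at least 2-fold downwards in 255 (2.19%), and it reached 4-fold in 271 and 51 genes. The larger changes were therefore mostly upward, while the median log2 fold change of all tested genes was -0.01. The 271 genes raised at least 4-fold made up 0.645% to 0.711% of the counts of a Control library and 5.43% to 5.76% of those of an LPS library. The 255 genes lowered at least 2-fold went from 0.57% to 0.582% down to 0.178% to 0.201%. The 3 LPS libraries did not overlap the 3 Control libraries in 3969 genes (34.1%). Without LPS library 1 the calls were 1494 higher and 955 lower, and without LPS library 2, the library rich in fibroblast markers, they were 1591 and 922. With only the 6 compared libraries in the fit they were 1413 and 688, the latter with 169 of at least 2-fold.

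**Figure D1:**
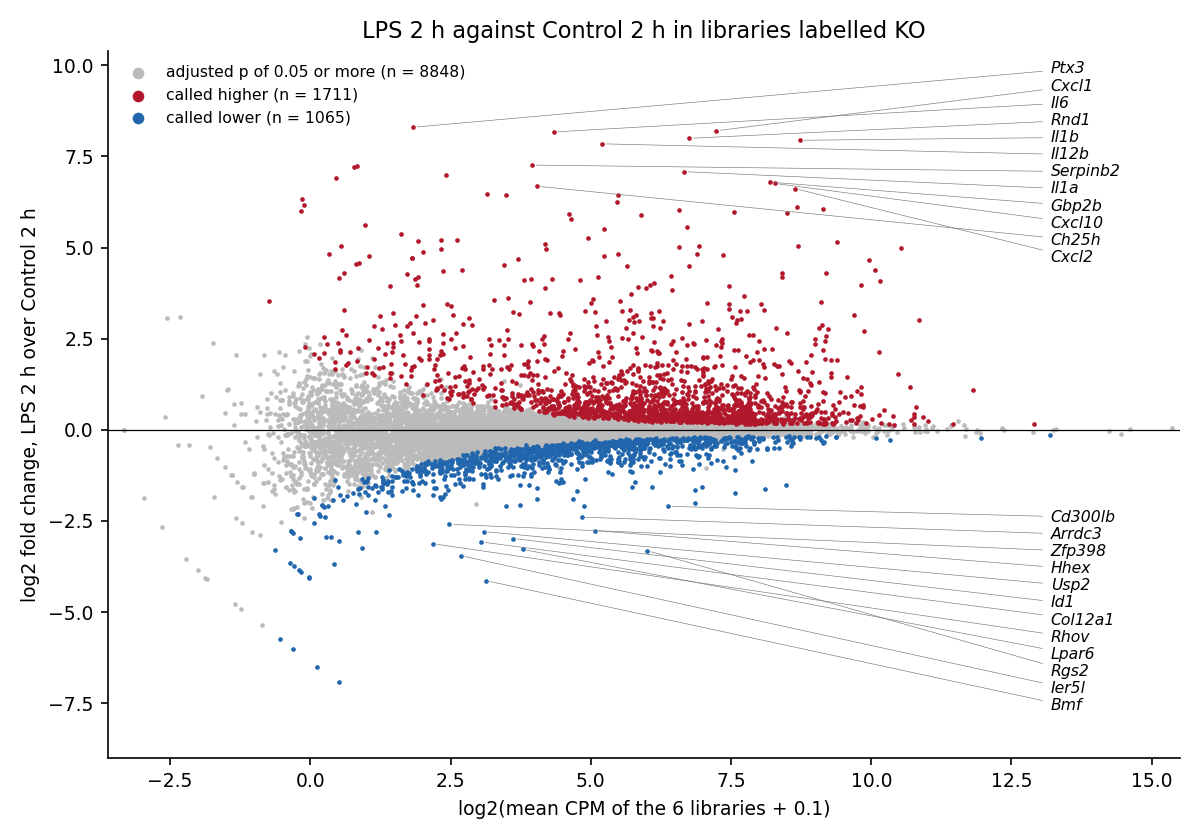
Each point is 1 of 11624 genes, placed by its log2 mean level over the 6 libraries (CPM + 0.1) and by its log2 fold change at 2 h of LPS over Control in the libraries labelled KO. Genes called higher are red (n = 1711) and genes called lower blue (n = 1065), and the 12 genes with the largest change in each direction under the naming rule carry their symbols. The largest upward changes reach a log2 fold change of 8 and the largest named downward change is -4.14.

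Partners of the LPS receptor in signalling mostly rose. Of 30 genes for the receptor and its signal transduction, 21 were called higher, 2 lower and 7 neither, with a median log2 fold change of 0.44 against -0.01 for all genes. Cd14, the co-receptor that hands LPS to TLR4, was at 162, 136 and 161 CPM in Control and at 1044, 1039.6 and 1051 CPM with LPS, a log2 fold change of 2.77 ± 0.12 (SE, n = 3 in each group). The LPS and Control groups lay far apart. The changes given below are log2 fold changes with this SE. It comes from the fit of all 42 libraries, with the spread pooled over the 14 groups, and not from these 6 libraries alone. Tlr4, which was looked up after its values were seen, had a log2 fold change of -0.12 ± 0.10 and was not called. Peli1, a ubiquitin ligase of the IRAK complex, rose by 2.43 ± 0.086, Mapkapk2, the kinase below p38 that stabilises cytokine mRNAs, by 1.93 ± 0.078, and Map3k8, the TPL2 kinase upstream of ERK, by 1.46 ± 0.16. The 2 members that fell were Tab1, an activator of the TAK1 kinase, at 16.3, 12.2 and 12.7 CPM in Control and 7.21, 5.27 and 5.19 CPM with LPS (-1.26 ± 0.24), and Cd180, a TLR4 homologue that restrains it (-0.29 ± 0.084). Irak1 (0.13 ± 0.074) and Ikbkg (-0.01 ± 0.076) were the most abundant members that were not called.

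The subunits and inhibitors of NF-kappaB rose nearly as a whole, 19 of 20 called higher and 0 lower, with a median log2 fold change of 2.19. Nfkbiz, a nuclear cofactor needed for secondary NF-kappaB targets such as Il6, stood at 34, 35.1 and 40.04 CPM in Control and at 1479, 1211 and 1233 CPM with LPS. Tnfaip3 (chromosome 10, 19000910 to 19015657, GRCm38), the A20 enzyme that shuts off the pathway, was at 100.2, 98.5 and 98.9 CPM and 2113, 2025 and 2032 CPM. The spread within each group was small beside the distance between them in both genes, and their log2 fold changes were 5.16 ± 0.11 and 4.37 ± 0.071. The call of Tnfaip3 had the smallest adjusted p of all genes (edgeR, 5.32e-43). Traf1, an adaptor of TNF receptors, rose by 3.25 ± 0.17 and Nfkbie, which encodes IkappaB epsilon, by 3.03 ± 0.092. Cyld, another deubiquitinase that limits the pathway, was the 1 member not called, at 0.12 ± 0.090.

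Immediate early genes gave a mixed picture at this time, with 17 of 24 called higher and 3 lower. Maff, a small MAF protein, rose from 9.23, 9.67 and 4.92 CPM to 118, 133 and 123 CPM (3.98 ± 0.16). Egr1 rose by 2.80 ± 0.20, Ier2 by 2.13 ± 0.20 and Fosb by 2.93 ± 0.72, the last from a low level of 0.724, 0 and 1.53 CPM. Fos itself, a subunit of AP-1 whose mRNA lives for minutes, fell, with 95.5, 77 and 86.4 CPM in Control and 47.8, 45.2 and 49.3 CPM in LPS (-0.86 ± 0.12). Atf3, a repressor of Toll-like receptor targets, and Jun, the partner of FOS, fell as well, with log2 fold changes of -0.51 ± 0.068 and -0.39 ± 0.070. Srf (0.22 ± 0.13) and Mafk (0.14 ± 0.16) were not called.

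Of the 24 cytokine genes tested, 20 were called higher and 0 lower, with a median log2 fold change of 3.21, or 3.16 with Il23a at the lower bound given below. Il6, the acute phase cytokine, had 0, 0.358 and 0 CPM in the Control libraries, a single pair of counts in all, and 35.7, 43.4 and 41.5 CPM in the LPS libraries. The ratio of its counts was 349 (95% interval 96 to 2886, exact, counting error only). Il1b (chromosome 2, 129364570 to 129371139), the precursor of interleukin 1 beta, went from 3.08, 4.48 and 2.71 CPM to 875, 839 and 823 CPM, a log2 fold change of 7.94 ± 0.19. These genes passed from the edge of detection, or close to it, to levels that were even among the 3 LPS libraries. Il12b, the p40 subunit shared by interleukins 12 and 23, was at 0.905, 0 and 0 CPM and 84.3, 61.2 and 74 CPM (7.85 ± 0.44). Il1a, for interleukin 1 alpha, was at 0.905, 1.61 and 1.87 CPM and 187, 212 and 206 CPM (7.08 ± 0.24). Il23a, for the p19 subunit of interleukin 23, had 0 counts in every Control library and 3.04, 3.04 and 3.68 CPM with LPS, at least 6.15-fold higher against a floor of 3 counts per library. Tnf, chosen after its values were seen as the best known product of this response, was at 80.3, 79.8 and 67.7 CPM in Control and 1976, 1822 and 1920.1 CPM with LPS (4.65 ± 0.091). Osm (0.05 ± 0.24) and Inhba (0.17 ± 0.68) were among the 4 members not called, and Il19, Csf2, Csf3 and Lta had too few counts to be tested.

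Of the 21 chemokine genes tested, 17 were called higher and 0 lower, with a median log2 fold change of 4.79, or 4.49 with Cxcl11 at its lower bound. Cxcl1, a neutrophil attractant, was at 1.27, 1.25 and 0.509 CPM in Control and 267, 296 and 339 CPM with LPS. Its neighbour Cxcl2, of the same function, was at 5.97, 11.3 and 6.79 CPM and 820.0, 771 and 774 CPM. Cxcl10, which draws activated T cells and responds to interferon, was at 7.42, 4.48 and 5.09 CPM and 588, 609 and 646 CPM. The log2 fold changes of these genes were 8.20 ± 0.23, 6.62 ± 0.18 and 6.76 ± 0.14, and the LPS libraries stayed close to each other in all of them. Cxcl11, a ligand of the same receptor as CXCL10, had 0 counts in Control and 1.14, 3.44 and 3.03 CPM with LPS, at least 4.8-fold higher, and its call was lost in DESeq2 (adjusted p = 0.111). Ccl6 (-0.10 ± 0.13) and Cxcl14 (-0.77 ± 0.35) were the most abundant of the 4 members not called.

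**Figure D2:**
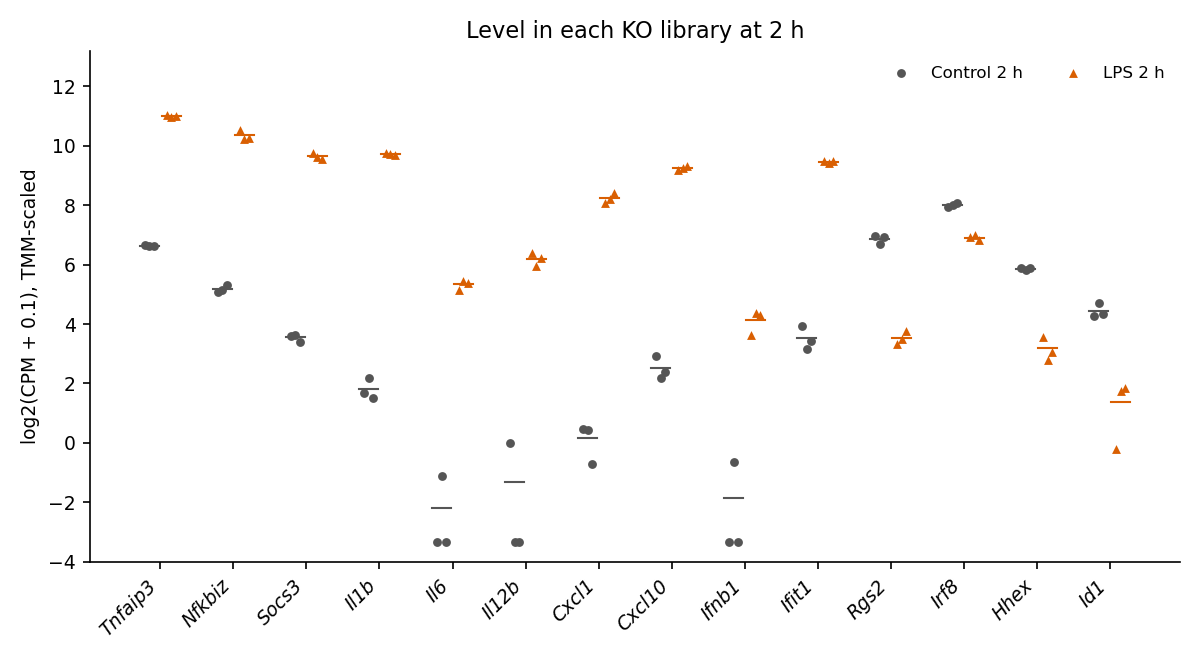
Level of 14 genes in each library labelled KO at 2 h, as log2(CPM + 0.1) after TMM scaling, with 3 Control libraries (grey circles), 3 LPS libraries (orange triangles) and the mean of each group as a short line. Tnfaip3 to Ifit1 lie higher with LPS and Rgs2 to Id1 lower, and no gene shows an overlap between the groups. The genes were picked from those called, some under a rule that asks for no overlap, so this separation was largely built in. Of all tested genes 34.1% show no overlap. A point at -3.32 stands for a library with 0 counts.

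Promoters of 6 genes among those that rose far are shown, chosen because they hold letters that NF-kappaB or interferon factors are known to bind. RefSeq windows of GRCm38.p6, from 250 bases before to 50 after a start, were at hand for 8900 of the tested genes (76.6%). A match to a kappaB-like motif was taken as GGNNTTTCC and a match to an interferon response element as GAAANNGAA, on either strand. The 250 bases before the start are printed 5′ to 3′ for the 6 genes with the largest log2 fold change among those considered that held a match, with the matches in capitals.
Cxcl1 (chr5:90890995-90891244, plus strand): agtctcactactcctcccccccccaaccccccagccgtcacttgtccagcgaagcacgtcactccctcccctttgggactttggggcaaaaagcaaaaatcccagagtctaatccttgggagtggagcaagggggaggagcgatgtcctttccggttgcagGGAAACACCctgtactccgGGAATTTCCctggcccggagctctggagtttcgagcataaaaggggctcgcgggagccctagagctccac
Il6 (chr5:30012864-30013113, plus strand): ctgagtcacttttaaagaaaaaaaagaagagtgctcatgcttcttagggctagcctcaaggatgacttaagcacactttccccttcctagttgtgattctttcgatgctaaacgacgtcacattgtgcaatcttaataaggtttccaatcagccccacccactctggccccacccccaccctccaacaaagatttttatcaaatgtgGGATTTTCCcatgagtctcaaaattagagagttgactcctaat
Gbp2b (chr3:142594597-142594846, plus strand): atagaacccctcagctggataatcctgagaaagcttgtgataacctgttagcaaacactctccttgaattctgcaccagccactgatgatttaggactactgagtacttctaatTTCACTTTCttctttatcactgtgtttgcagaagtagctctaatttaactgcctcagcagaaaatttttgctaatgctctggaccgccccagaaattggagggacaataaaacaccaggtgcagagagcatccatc
Cxcl10 (chr5:92348890-92349139, minus strand): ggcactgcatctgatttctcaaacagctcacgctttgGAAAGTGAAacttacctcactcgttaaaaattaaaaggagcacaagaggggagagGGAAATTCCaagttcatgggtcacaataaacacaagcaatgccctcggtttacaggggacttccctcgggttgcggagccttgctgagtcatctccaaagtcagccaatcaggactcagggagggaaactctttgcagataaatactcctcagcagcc
Cxcl2 (chr5:90903649-90903898, plus strand): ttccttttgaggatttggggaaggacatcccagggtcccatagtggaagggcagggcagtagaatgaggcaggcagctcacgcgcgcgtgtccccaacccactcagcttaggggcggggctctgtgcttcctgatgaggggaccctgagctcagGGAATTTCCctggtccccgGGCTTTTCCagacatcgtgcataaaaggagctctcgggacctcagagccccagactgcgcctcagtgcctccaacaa
Ifnb1 (chr4:88522795-88523044, minus strand): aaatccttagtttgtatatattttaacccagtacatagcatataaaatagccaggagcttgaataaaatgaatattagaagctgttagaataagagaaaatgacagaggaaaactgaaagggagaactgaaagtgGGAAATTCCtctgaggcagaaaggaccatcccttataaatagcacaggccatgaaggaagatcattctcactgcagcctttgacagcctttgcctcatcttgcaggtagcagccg
The kappaB-like match of Il6 began 43 bases before its start. Cxcl1 held a pair of matches 89 and 70 bases before its start and Cxcl2 a pair 96 and 77 bases before, and the match GGAATTTCC was common to both promoters. Cxcl10 held a kappaB-like match 158 bases and an interferon response element match 213 bases before its start. Gbp2b held the latter alone, 136 bases before.

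Over whole windows, 18% of the 245 windows of genes raised at least 4-fold held a kappaB-like match (Wilson 95% interval 13.7% to 23.2%), beside 6.17% of all 11390 windows and 4.18% of the 239 windows of genes lowered at least 2-fold (2.29% to 7.53%). For the interferon response element the shares were 16.7% (12.6% to 21.9%), 7.46% and 6.69% (4.16% to 10.6%). An AP-1 match, TGANTCA, was in 12.7% (9.06% to 17.4%), 5.15% and 3.77% (1.99% to 7.0%). The cyclic AMP response element TGACGTCA was in 2.86% (1.39% to 5.78%), 3.06% and 2.93% (1.43% to 5.92%), so its intervals include the share of all windows. Several windows can belong to 1 gene, the motifs were searched on both strands, and a match describes letters and not a bound factor. Of 27 named genes with a window, 8 held a kappaB-like match, among them Tnfaip3, Rsad2 and Cd300lb, of which the last fell with LPS. Il1b, Il12b, Il1a, Ptx3, Serpinb2, Ch25h and Traf1, which all rose far, had none of the kappaB-like or interferon matches in their windows.

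Interferon genes rose nearly as a whole, 41 of 44 tested members higher and 0 lower, with a median log2 fold change of 1.67. Ifnb1, for interferon beta itself, had 0, 0.537 and 0 CPM in Control, from 3 counts in 1 library, and 12.1, 20.5 and 19.5 CPM with LPS. The ratio of its counts was 104 (95% interval 35 to 506, exact). Rsad2, for the antiviral enzyme viperin, was at 18.3, 17.2 and 14.6 CPM and 1036, 1125 and 1164 CPM (6.06 ± 0.15). The antiviral RNA-binding protein gene Ifit1 was at 15, 8.77 and 10.7 CPM and 722, 691 and 712 CPM (5.94 ± 0.14), and Mx2, an antiviral GTPase, at 1.27, 0.358 and 1.36 CPM and 81.2, 101 and 83.3 CPM (6.44 ± 0.29). Some classical interferon targets did not pass the test at 2 h. Irf7, the factor that amplifies type I interferon, was at 47.4, 35.6 and 34.1 CPM in Control and 44.4, 44.8 and 59 CPM with LPS (0.36 ± 0.23), Oas3 was at -0.11 ± 0.17 and Bst2, which tethers virus particles, at 0.08 ± 0.13, and these were the 3 members not called.

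Among 11 interferon regulatory factors and their binding proteins, 3 rose and 4 fell, beside 14.7% and 9.16% of all genes. Irf1 rose from 51.9, 50.5 and 49 CPM to 410.4, 542 and 519 CPM (3.29 ± 0.095), Irf9, the DNA-binding part of the interferon complex ISGF3, by 0.86 ± 0.11, and Irf5 by 0.45 ± 0.056. Irf8, a factor of the monocyte lineage, fell from 247, 260.1 and 267 CPM to 121, 128 and 112 CPM (-1.10 ± 0.071). The corepressor genes fell too, Irf2bpl (-0.74 ± 0.11), Irf2bp1 (-0.66 ± 0.15) and Irf2bp2 (-0.52 ± 0.083). Irf2bpl stood at 140.2, 158 and 149 CPM in Control and 124, 75.4 and 76.8 CPM with LPS, so LPS library 1 lay nearer to Control than the others. Irf2 (0.17 ± 0.092) was not called.

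Genes of negative feedback rose in 16 of 26 cases and fell in 3, with a median log2 fold change of 1.7. Socs3, an inhibitor of cytokine receptors, was at 12.1, 12.2 and 10.5 CPM and 870.1, 794 and 758 CPM (6.12 ± 0.13). Socs1, its relative that blocks interferon signalling, was at 1.27, 1.43 and 0.17 CPM and 25.8, 24.7 and 24.2 CPM (4.69 ± 0.45), and Cish, a further member of the family, rose by 4.97 ± 0.40. Gem, a small GTPase, rose by 4.81 ± 0.25. The members that fell were Rgs2, Dusp6 and Zfp36l2. Rgs2 (chromosome 1, 143999338 to 144004161), which stops G protein signals, was at 124, 104 and 122 CPM in Control and 9.87, 11.1 and 13.4 CPM with LPS (-3.31 ± 0.12). Dusp6, the phosphatase of ERK, was at 44, 38.9 and 40.5 CPM and 6.07, 15.8 and 9.08 CPM (-1.91 ± 0.17), and Zfp36l2, which marks mRNAs for decay, at 294, 298 and 278 CPM and 110.1, 81.2 and 77.8 CPM (-1.72 ± 0.090). Zfp36l1 (0.05 ± 0.083) and Spry2 (-0.29 ± 0.30) were not called.

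**Figure D3:**
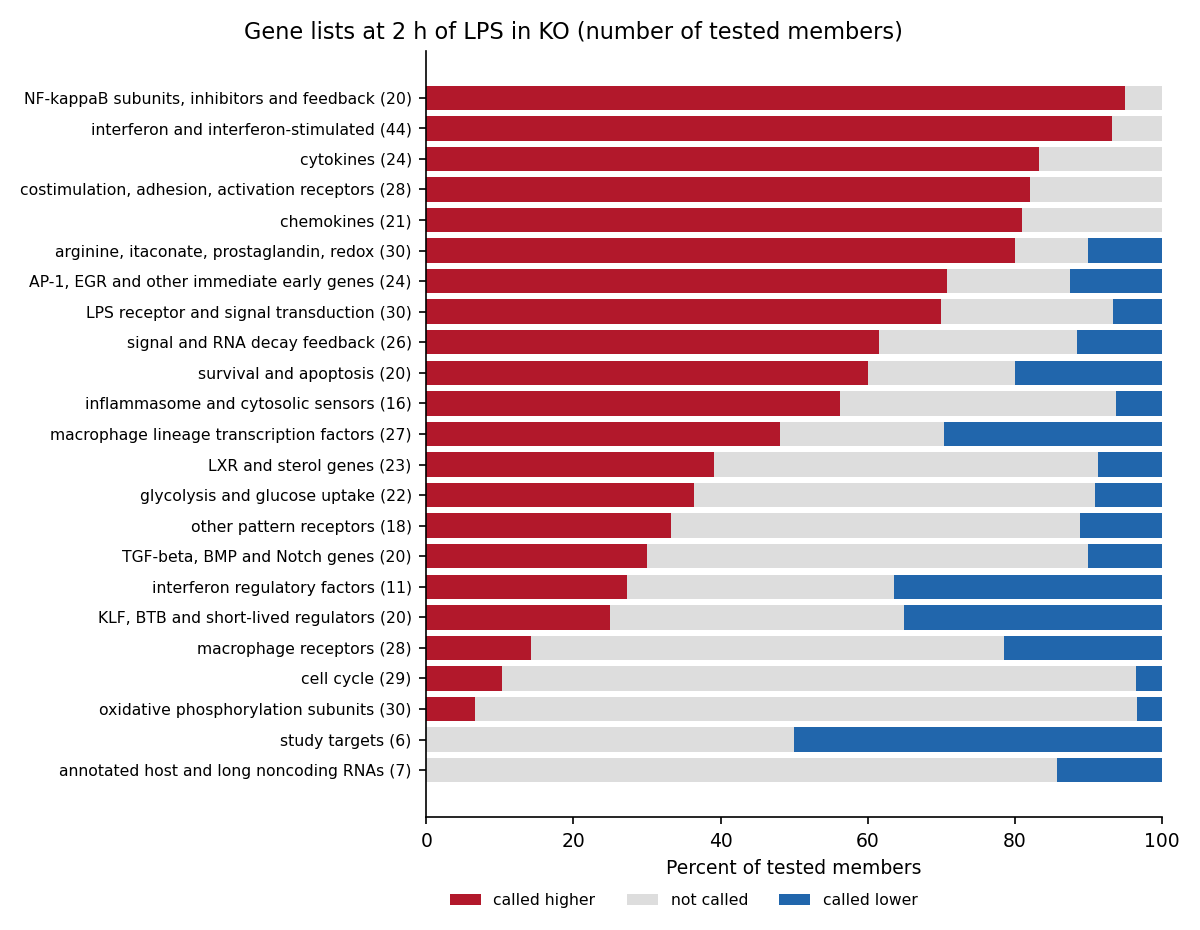
Share of the tested members of each of 23 gene lists called higher (red), not called (grey) or called lower (blue) at 2 h of LPS in the libraries labelled KO, with the number tested in brackets. NF-kappaB genes (19 of 20 higher) and interferon genes (41 of 44) stand at the top, and oxidative phosphorylation genes (2 of 30) and cell cycle genes (3 of 29) near the bottom. Of all tested genes 14.7% were called higher and 9.16% lower.

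Sensors of the cytosol shared in the response, 9 of 16 higher and 1 lower. Nlrp3, the sensor of the inflammasome that cleaves interleukin 1 beta, was at 69.3, 52.6 and 49.4 CPM and 1135, 1118 and 1104 CPM (4.29 ± 0.11). Nod2, a receptor of bacterial peptidoglycan, was at 4.52, 3.58 and 4.58 CPM and 99.8, 95.6 and 91 CPM (4.49 ± 0.20). Mefv, for pyrin, rose by 3.08 ± 0.10 and Casp4, for the caspase that binds LPS inside the cell, by 1.91 ± 0.16. P2rx7, the channel through which ATP triggers NLRP3, fell (-0.69 ± 0.12). Nek7 (-0.14 ± 0.077) and Naip2 (0.12 ± 0.091) were not called. Of 18 other pattern receptors 6 rose and 2 fell, beside 14.7% and 9.16% of all genes. Clec4e, which encodes the glycolipid receptor MINCLE, was at 40.5, 32.8 and 32.4 CPM and 572, 650.2 and 719 CPM (4.20 ± 0.14), and Tlr2, the receptor of bacterial lipoproteins, at 212, 161 and 169 CPM and 1013, 960.2 and 936 CPM (2.42 ± 0.10). Clec5a rose by 1.77 ± 0.17 and Tlr1, the partner of TLR2, by 1.08 ± 0.15. Tlr13 fell (-0.26 ± 0.060), and Tlr8 was called lower at -0.23 ± 0.071, a call that was lost without LPS library 3 (edgeR, adjusted p = 0.0598). The mannose receptor gene Mrc1 (0.08 ± 0.10) and the scavenger receptor gene Marco (0.18 ± 0.099) were not called.

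At the cell surface, 23 of 28 genes of costimulation, adhesion and activation rose and 0 fell, with a median log2 fold change of 1.76. Cd69, an early marker of activated leukocytes, was at 0.905, 1.61 and 0.848 CPM and 98.7, 83.1 and 78.1 CPM (6.24 ± 0.30). Cd40, through which T cells license macrophages, was at 9.77, 6.62 and 9.84 CPM and 156, 175 and 161 CPM (4.23 ± 0.17). Adora2a, the adenosine receptor that restrains inflammation, rose by 4.10 ± 0.25 and Gpr84, a receptor of medium-chain fatty acids, by 4.03 ± 0.20. Il4ra (-0.06 ± 0.078) and Tnfrsf1a (0.09 ± 0.081) were not called. Of 28 receptors for growth factors and chemoattractants, 4 were called higher and 6 lower, beside 14.7% and 9.16% of all genes. Cxcr4, the receptor that holds cells in the marrow, fell from 187, 173 and 169.8 CPM to 55.4, 49.4 and 63.1 CPM (-1.66 ± 0.11), Cx3cr1, the fractalkine receptor (-1.42 ± 0.26), and S1pr2, for a sphingolipid receptor (-1.15 ± 0.10). C5ar1, the receptor of complement C5a, rose by 1.17 ± 0.066 and Ptger4, a prostaglandin E2 receptor, by 1.03 ± 0.13. Csf1r (0.14 ± 0.069) and Itgam (0.05 ± 0.054) were not called. Axl and Csf2ra, the other members called higher, had log2 fold changes of 0.34 ± 0.12 and 0.21 ± 0.080. The call of Axl was lost without any 1 of the 6 libraries (edgeR, adjusted p = 0.0628 to 0.105), and that of Csf2ra without any 1 except LPS library 2 (0.0593 to 0.246).

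Effector enzymes and secreted factors rose in 24 of 30 cases and fell in 3. Ptx3, the pentraxin that opsonises microbes, had 0 counts in the Control libraries and 5.69, 8.1 and 6.92 CPM with LPS, at least 13.1-fold higher against 3 counts per library, and its call was lost in DESeq2 (adjusted p = 0.0763). Serpinb2, a protease inhibitor of activated macrophages, was at 0.543, 0 and 0 CPM and 31.5, 31.2 and 29 CPM, a ratio of 172 (95% interval 58.6 to 840.0, exact). Ch25h, which makes the antiviral oxysterol 25-hydroxycholesterol, was at 0.724, 0 and 0.17 CPM and 24.7, 31.4 and 40.9 CPM (6.68 ± 0.60). Ptgs2, for cyclooxygenase 2, was at 5.25, 6.98 and 5.43 CPM and 395, 374 and 337 CPM (5.96 ± 0.22), whereas Ptgs1, for its constitutive relative, was called lower at -0.39 ± 0.14, a call lost without LPS library 3 (edgeR, adjusted p = 0.148) and without Control library 1 or 2 (0.0993 and 0.0663). The redox genes Gclm and Hmox1, targets of NRF2, fell, with log2 fold changes of -0.35 ± 0.071 and -0.28 ± 0.074. Slc7a11 and Txnrd1, also targets of NRF2, rose by 2.05 ± 0.15 and 0.64 ± 0.073. Ass1, an enzyme of arginine synthesis, was at 0.19 ± 0.16 and was not called.

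Energy and lipid genes had smaller median changes than the NF-kappaB, cytokine and chemokine genes above. Of 22 glycolysis genes 8 rose and 2 fell, with a median log2 fold change of 0.00. Among all tested genes 14.7% were called higher and 9.16% lower. The sugar transporter gene Slc2a6 rose from 8.51, 4.65 and 2.71 CPM to 57.3, 56.1 and 62.3 CPM (3.48 ± 0.26), Slc2a1 by 0.77 ± 0.13, Hif1a by 0.76 ± 0.10 and Pfkfb3, which drives glycolytic flux, by 0.62 ± 0.064. Pfkfb4 fell (-0.70 ± 0.13) and Bhlhe40 (-0.60 ± 0.11). The abundant enzymes Pkm (-0.04 ± 0.075) and Aldoa (-0.02 ± 0.072) were not called. Among 30 oxidative phosphorylation subunits 27 were not called, and the median log2 fold change was -0.06. Atp5a1 (0.21 ± 0.063) was among the 2 called higher, and Ndufb8 (-0.46 ± 0.17) was called lower. Without LPS library 1 neither of these calls held (edgeR, adjusted p = 0.0975 and 0.166), nor without Control library 2 (0.102 and 0.0727). The call of Atp5a1 was also lost without Control library 1 (0.0539), and that of Ndufb8 without Control library 3 or LPS library 3 (0.137 and 0.155). Of 23 genes of cholesterol handling 9 rose and 2 fell. Insig1 and Cyp51, targets of the sterol-regulated transcription factor SREBP2, rose by 1.15 ± 0.13 and 0.80 ± 0.14. Abcg1, a cholesterol exporter, fell from 180.4, 185 and 212 CPM to 131, 153 and 151 CPM (-0.40 ± 0.078), and Scd2, a desaturase (-0.62 ± 0.11). Apoe was at 24441, 23914 and 26186 CPM and 24288, 25948 and 24902 CPM and was not called (0.01 ± 0.054).

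The 12 named genes with the largest fall included regulators of death, signalling and identity. Bmf (chromosome 2, 118528757 to 118549687), a BH3 protein that promotes apoptosis, was at 15, 17.9 and 15.9 CPM in Control and 1.52, 0.81 and 0.649 CPM with LPS (-4.14 ± 0.31). Lpar6, a receptor of lysophosphatidic acid, was at 27.9, 28.1 and 18.7 CPM and 1.9, 2.03 and 3.46 CPM (-3.28 ± 0.24). The transcription factor Hhex was at 58.6, 56.8 and 58.5 CPM and 11.8, 6.89 and 8.22 CPM (-2.76 ± 0.14). LPS left each of these at a small part of its Control level in every library. Id1, an inhibitor of basic helix-loop-helix factors that BMP signals induce, was at 19.4, 26 and 20.2 CPM and 0.759, 3.24 and 3.46 CPM (-2.98 ± 0.30). Cd300lb, an activating receptor of myeloid cells, was at 128, 140.4 and 138 CPM and 30.4, 36.1 and 27.7 CPM (-2.10 ± 0.087). Arrdc3, an arrestin that lowers surface receptors, was at 45.1, 41.7 and 56.7 CPM and 10.6, 8.31 and 8.87 CPM (-2.40 ± 0.21). Ier5l (-3.45 ± 0.40), the small GTPase gene Rhov (-3.12 ± 0.41), the deubiquitinase gene Usp2 (-2.79 ± 0.31) and the zinc finger gene Zfp398 (-2.59 ± 0.32) fell as well.

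Col12a1, a collagen gene, was the remaining member of those 12, at 19.7, 11.1 and 13.7 CPM in Control and 0, 3.85 and 0.649 CPM with LPS. Its log2 fold change of -3.08 ± 1.0 was called in edgeR (adjusted p = 0.024) and not in DESeq2 (0.219), nor without Control library 1 (0.0687), LPS library 1 (0.0784) or LPS library 3 (0.101). The fibroblast list moved in part with it, since Col1a1 and Col1a2, of type I collagen, were at 41 to 59.1 and 22.2 to 42.1 CPM in Control and at 0.758 to 0.864 and 0 to 0.432 CPM in LPS libraries 1 and 3, but at 92.5 and 38.4 CPM in LPS library 2. Of that list 5 of 6 had a count, Dcn was at 0, and 1 of the 4 tested, Pdgfrb, was called (higher). The part of fibroblasts in the fall of Col12a1 was not tested. For Il6, Cxcl1 and Ptx3, LPS library 1, with 3.03 CPM of fibroblast markers, held 35.7, 267 and 5.69 CPM. Whether fibroblasts had a part in the rise of these or other genes was not tested either.

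Transcription factors of a macrophage lineage list, not all of them particular to macrophages, moved in both directions. Of 27 tested, 13 were called higher and 8 lower, beside 14.7% and 9.16% of all genes. Tfec, a relative of MITF, rose from 11.2, 11.1 and 11.2 CPM to 94.9, 86.9 and 90.2 CPM (3.02 ± 0.17). Klf2 rose by 1.25 ± 0.19, Nfe2l2, which encodes NRF2, by 1.22 ± 0.060, and Cebpd by 1.11 ± 0.15. Cebpa, of the myeloid progenitor, fell from 485, 552 and 544 CPM to 247, 157 and 157 CPM (-1.52 ± 0.10). LPS library 1 was the highest of the LPS libraries and still below every Control library. Bach1 (-0.06 ± 0.062) and Tcf4 (-0.07 ± 0.085) were not called. Of 20 short-lived regulators of other kinds, 5 rose and 7 fell, beside the same shares of all genes. Klf7 rose from 11.9, 14 and 17 CPM to 119, 129.7 and 113 CPM (3.07 ± 0.14), Cited2 by 1.72 ± 0.096 and Klf3 by 1.14 ± 0.094. Sesn1 fell (-1.43 ± 0.13), Tsc22d3, the glucocorticoid-induced leucine zipper (-1.35 ± 0.15), Txnip, an inhibitor of thioredoxin (-1.15 ± 0.096), and the clock gene Per1 (-0.90 ± 0.18). Ddit4 was called higher at 2.25 ± 0.59, with the call lost without LPS library 2 (edgeR, adjusted p = 0.0677), and Klf13 (-0.05 ± 0.067) and Hexim1 (0.00 ± 0.074) were not called.

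Survival genes rose in 12 of 20 cases and fell in 4, beside 14.7% and 9.16% of all genes. Gadd45b, of the stress response, was at 17.2, 19.3 and 20.7 CPM and 131, 126 and 138 CPM (2.78 ± 0.14), Ripk2, the kinase of NOD2, rose by 2.65 ± 0.17, Cflar, which blocks caspase 8, by 2.58 ± 0.065, and the cell cycle inhibitor gene Cdkn1a by 2.21 ± 0.091. Gadd45g fell (-1.47 ± 0.20), as did Bcl2l1, which encodes BCL-XL (-0.80 ± 0.080) and Plk3 (-0.72 ± 0.13). Ripk1 (-0.04 ± 0.075) and Casp8 (-0.02 ± 0.093) were not called. Of the cell cycle genes 25 of 29 were not called. Mki67, which encodes the Ki-67 protein of dividing cells, was an exception, at 263, 253 and 216 CPM in Control and 826, 680.1 and 706 CPM with LPS (1.59 ± 0.10). Cdk6 (0.52 ± 0.12) and Top2a (0.34 ± 0.12) were the others called higher, the latter not without LPS library 1 or 3 or Control library 2 or 3 (edgeR, adjusted p = 0.107 to 0.154), and E2f2 fell (-1.23 ± 0.22). Pcna (0.00 ± 0.081) and Mcm6 (-0.22 ± 0.10), of DNA replication, were not called.

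Of 20 TGF-beta, BMP and Notch genes 6 rose and 2 fell, beside 14.7% and 9.16% of all genes. Jag1, a Notch ligand, rose from 123, 129 and 129 CPM to 436, 411 and 411 CPM (1.72 ± 0.073), Rbpj, the factor through which Notch acts, by 1.22 ± 0.090, and Skil, a brake on SMAD proteins, by 1.05 ± 0.065. Smad7, another brake on TGF-beta, fell from 102, 104 and 100.4 CPM to 32.3, 34.8 and 36.1 CPM (-1.56 ± 0.12), and Ski (-0.49 ± 0.077). Tgfbr1 (0.07 ± 0.064) and Notch1 (0.15 ± 0.081) were not called. Among 6 genes that the study listed as bound by IRF5 and changed between genotypes, 0 rose and 3 fell at 2 h. The study drew that list in part from expression in these BMDM, so it is not independent of this series. Ghitm, for a protein of the inner mitochondrial membrane, was at 128, 131 and 127 CPM and 145, 135 and 148 CPM (0.15 ± 0.074) and was not called. Atf5, a factor of the mitochondrial stress response, fell from 41.3, 47.4 and 48.7 CPM to 21.6, 31.8 and 35 CPM (-0.59 ± 0.14), Fnip2, a partner of folliculin (-0.37 ± 0.062), and Abcg1 as above, while Lrrc27 (-0.14 ± 0.20) was not called. Of 7 long noncoding RNAs tested 1 was called, Gas5, which fell (-0.47 ± 0.14), beside 9.16% of all genes called lower. Malat1 (0.05 ± 0.22) and Neat1, at 177, 262 and 97.4 CPM in Control and 82.8, 69.3 and 108 CPM with LPS (-1.04 ± 0.41), were not.

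Several of the genes raised at least 4-fold lay side by side. Of the 262 that could be placed on GRCm38, 24 (9.16%) formed 7 runs of at least 3 genes with starts within 100 kb. On chromosome 5, Cxcl9, Cxcl10 and Cxcl11 lay between 92321347 and 92365485. Cxcl9, another interferon-induced ligand of the same receptor, had 1 count in the Control libraries together and 5, 25 and 19 counts in the LPS libraries. Chromosome 19 carried Ch25h, Ifit2, Ifit3, Ifit3b and Ifit1 between 34473778 and 34650009, and there Lipa and Ifit1bl1 were tested too and were not raised 4-fold. The guanylate-binding proteins Gbp7, Gbp3, Gbp2b and Gbp2 lay on chromosome 3 between 142530342 and 142638008, Gbp2b going from 6.33, 5.19 and 4.24 CPM to 541, 601 and 607 CPM (6.79 ± 0.17). Ccl2, Ccl7 and Ccl12 lay on chromosome 11 between 82035571 and 82103400, with log2 fold changes of 5.04 to 5.52. The other runs held Ifi206, Ifi214 and Ifi213, and Ifi211, Ifi203 and Ifi205, on chromosome 1 and H2-Q5, H2-Q6 and H2-Q7 on chromosome 17. Members of a run are mostly paralogs, so reads of near-identical copies may have been divided between them and single values are uncertain. Protein-coding genes raised at least 4-fold spanned a median of 14.7 kb with 6 exons in the longest transcript, and those lowered at least 2-fold 15.0 kb with 5 exons, beside 24.5 kb and 10 exons for all tested.

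The use of strand in the counting was not given in the sources used here, so reads of a gene and of an overlapping antisense gene cannot be told apart. In GENCODE such neighbours overlap several genes named here, among them Il1b (Il1bos), Il1a (Gm14023), Irf1 (Gm17334), Irf5 (Tnpo3), Irf7 (Phrf1), Jun (Junos), Lpar6 (Rb1), Atf5 (Il4i1) and Csf1r (Hmgxb3). On the same strand, Irf9 overlaps Rnf31, Serpinb2 overlaps Serpinb10 and Cx3cr1 overlaps Csrnp1, and their single values are uncertain too.

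The same treatment of the libraries labelled WT served to ask whether the early response differed with genotype. In WT, 1628 genes were called higher (14%) and 1058 lower (9.1%). Of the genes called higher, 1305 were shared, 76.3% of the KO list and 80.2% of the WT list, and 567 called lower were shared, 53.2% and 53.6%. Across the 2776 genes called in KO, the log2 fold changes of the genotypes had a Pearson r of 0.926 and the same sign in 96%. Over all 11624 tested genes r was 0.775, with the same sign in 72.7%. These are descriptions across genes, which are not independent replicates, and the former covers genes selected by their KO call. A single gene was called in opposite directions (n = 1). The difference between the effects was tested gene by gene, and 0 of 11624 genes (0.0%) were called in edgeR, with 810 at an unadjusted p under 0.05 (6.97%) and 1 in DESeq2. That gene, Fos, had the smallest p in edgeR as well. Its log2 fold change was -0.86 in KO and -0.09 in WT, a difference of -0.77 (95% interval -1.10 to -0.45) with an adjusted p of 0.198 in edgeR and 0.0466 in DESeq2. Hivep2, a zinc finger protein near to NF-kappaB, followed with 2.25 and 1.40, a difference of 0.85 (95% interval 0.48 to 1.23). Both were picked by their p-value after it was seen. With no filter on low counts, edgeR called 43 genes for the difference, as given in the last section.

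The absence of calls is not evidence of equal responses. The 95% interval of the difference had a median half-width of 0.467 log2 units over all genes and of 0.658 over those changed at least 2-fold in KO, and it lay within 1 log2 unit of 0 in 444 of those 858 genes (51.7%). Il6 had a log2 fold change of 8.17 in KO and 6.57 in WT (difference 1.60, 95% interval -0.59 to 3.80), Il1b 7.94 and 7.57 (difference 0.37, 95% interval -0.42 to 1.17), and Tnfaip3 4.37 and 4.46 (difference -0.08, 95% interval -0.27 to 0.10). The interval is wide for Il6, whose Control libraries hold next to no counts, and narrow for Tnfaip3.

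**Figure D4:**
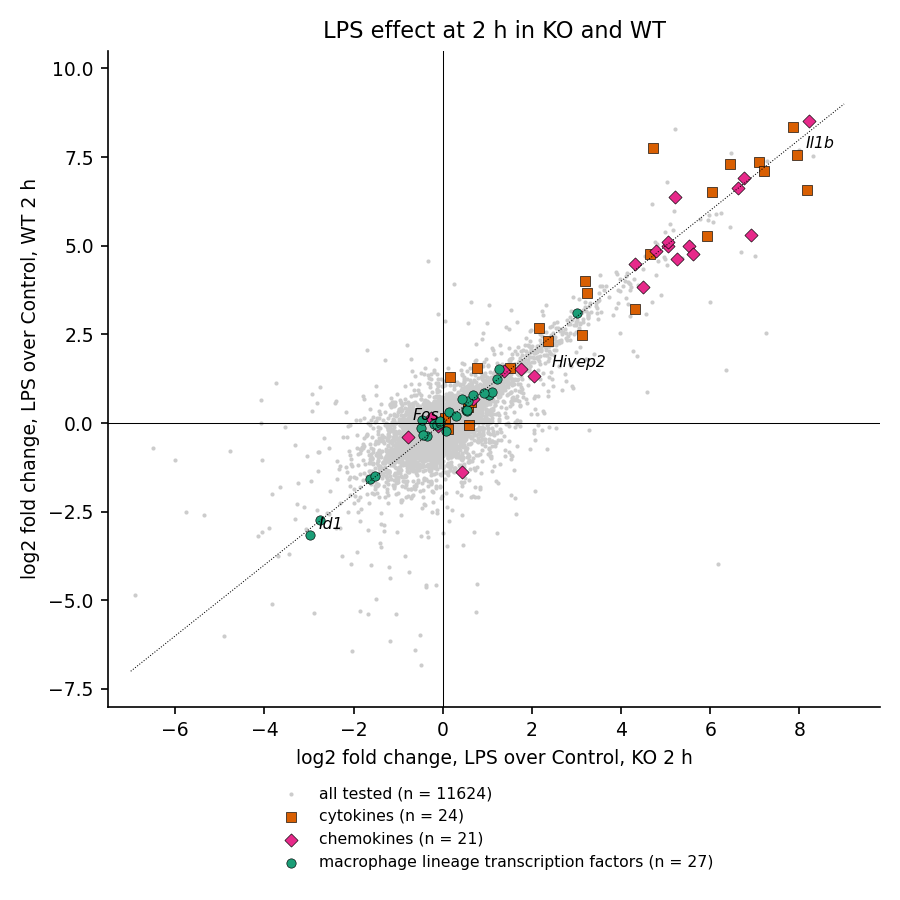
Log2 fold change at 2 h of LPS over Control in the libraries labelled KO (horizontal) and WT (vertical) for 11624 genes in grey, with 24 cytokine genes (orange squares), 21 chemokine genes (pink diamonds) and 27 macrophage lineage transcription factors (green circles). The dotted line marks equal effects, and Pearson r is 0.775 over all genes plotted and 0.926 over the 2776 called in KO. Fos and Hivep2 carry their symbols as the genes with the smallest p for a difference.

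After 24 h the response had another makeup. In the libraries labelled KO, LPS then raised 2310 genes (19.9%) and lowered 2440 (21%) against Control at 24 h, which are libraries other than those at 2 h. Of the 1711 genes called higher at 2 h, 770 were called higher at 24 h (45% of the early list and 33.3% of the late one) and 301 lower. The difference of the effects was called higher at 24 h in 1667 genes (14.3%) and lower in 2213 (19%). Of the 271 genes raised at least 4-fold at 2 h, 152 had a smaller effect at 24 h, 36 a larger one and 83 neither. Of the 255 lowered at least 2-fold, 123 had a higher effect at 24 h and 3 a lower one, and 75 were still called lower. These groups were selected for their change at 2 h, and at 24 h 325 genes were called higher and 260 lower by at least 4-fold. The median log2 fold changes of the early groups went from 3.03 to 1.53 and from -1.41 to -0.29. With the 7 and 4 genes at 0 counts in 1 group set to their bounds, the 2 h medians were 2.99 and -1.39.

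The lists divided by time. Of the 20 NF-kappaB genes, 18 had a lower effect at 24 h and 0 a higher one. Tnfaip3 had a log2 fold change of 4.37 at 2 h and 0.77 at 24 h, and Nfkbiz of 5.16 and 1.59. Ccl4, a chemokine for monocytes and T cells, went from 5.05 to 0.04, with 19.1 ± 3.12 CPM in Control and 19.5 ± 2.85 CPM in LPS at 24 h (SD, n = 3). Cxcl1 went from 8.20 to 2.58 and stood at 2.21 ± 1.51 CPM with LPS at 24 h. The opposite held for interferon genes, with 35 of 44 higher at 24 h and 3 lower. Irf7, not called at 2 h, was at 24 ± 5.09 CPM in Control and 1725 ± 92 CPM with LPS at 24 h (log2 fold change 6.17), and Oas3 was at 51.9 ± 3.76 and 755 ± 56.6 CPM (3.86). Rsad2 and Mx2 were among the exceptions, with differences of -1.04 ± 0.24 and -2.24 ± 0.57, while for Ifit1 the difference of 0.48 ± 0.26 was not called (edgeR, adjusted p = 0.153).

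Other groups turned over between the times. Cell cycle genes, mostly not called at 2 h, had a lower effect at 24 h in 20 of 29 cases. Mki67 rose by 1.59 at 2 h and fell to a log2 fold change of -1.59 at 24 h. Of 23 sterol genes 16 had a lower effect at 24 h, and Insig1 went from 1.15 to -1.08. Oxidative phosphorylation subunits had a higher effect at 24 h in 16 of 30 cases and a lower one in 0. Of the early falls, Bmf was at -0.13 at 24 h and was not called (edgeR, adjusted p = 0.585), whereas Id1 was still at -2.76 and Ier5l at -4.39. Irf8, which fell at 2 h, with a log2 fold change of -1.10, was at 0.02 at 24 h.

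**Figure D5:**
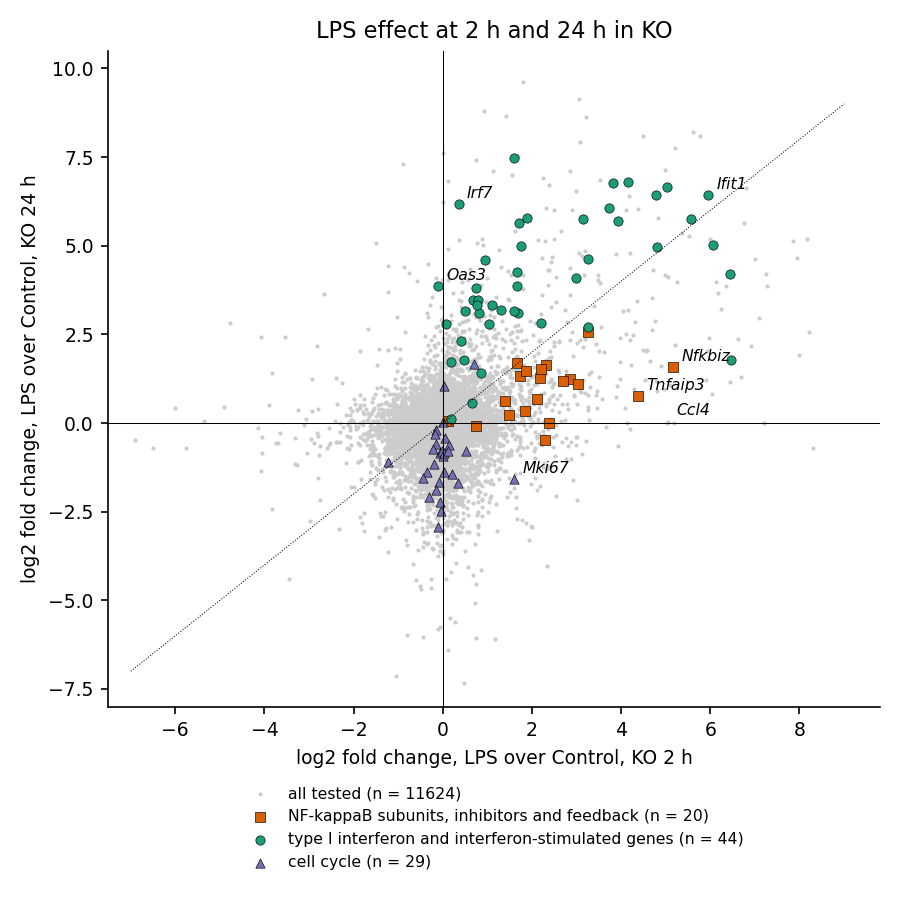
Log2 fold change of LPS over Control in the libraries labelled KO at 2 h (horizontal) and 24 h (vertical) for 11624 genes in grey, with 20 NF-kappaB genes (orange squares), 44 interferon genes (green circles) and 29 cell cycle genes (purple triangles). The dotted line marks equal effects. NF-kappaB genes lie mostly under it, interferon genes mostly above it, and most cell cycle genes near 0 at 2 h and below 0 at 24 h.

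The Control libraries at 2 h were not the same as those at 0 h in several of these genes, which are given as levels only. Id1 was at 1.33 ± 0.249 CPM at 0 h and 21.8 ± 3.59 CPM at 2 h in Control (SD, n = 3), and the LPS libraries at 2 h thus lay near the 0 h level. Smad7 was at 12.9 ± 2.55 and 102 ± 1.94 CPM, Skil at 179.6 ± 19.97 and 555 ± 14.9 CPM, and Arrdc3 at 11.6 ± 3.4 and 47.8 ± 7.85 CPM. Cxcl10 was at 0.368 ± 0.186 and 5.66 ± 1.55 CPM and Tnfaip3 at 36.8 ± 1.85 and 99.2 ± 0.93 CPM. Hhex and Bmf had levels of 42.6 ± 8.02 and 23.1 ± 2.66 CPM at 0 h, beside 58 ± 1.06 and 16.3 ± 1.47 CPM at 2 h in Control. Some falls with LPS were therefore measured against a Control level well above that of the start, and others were not. Palmitate at 2 h, which shares these Control libraries, left Il1b at 3.57 ± 0.196 CPM, Cxcl1 at 1.83 ± 0.145 CPM, Tnfaip3 at 90.5 ± 7.71 CPM and Rgs2 at 107 ± 5.44 CPM.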

How the data were processed

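Total RNA of BMDM was converted with a stranded low-input kit that removes ribosomal RNA. According to the submitters' processing notes, the authors used fastp 0.19.11 and STAR 2.7.3a, and the study's methods describe alignment to mm10 and counting by STAR. The notes also name mm9 without a role, and the annotation and strand setting of the counting are not given in the sources used here. The deposited values are raw counts per gene for 37310 identifiers and 42 libraries, of which 12146 had no count, and the columns carry group names only, so libraries were numbered in column order. Of the identifiers 32620 matched GENCODE M21, the source of symbols and positions on GRCm38.

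Counts were fitted in R 4.3.3 with edgeR 4.0.16 (limma 3.58.1), using filterByExpr (11624 genes left), TMM scaling, 1 mean per group over all 42 libraries, the quasi-likelihood test and Benjamini-Hochberg adjustment over all tested genes. On simulated counts with 200 changed genes (11566 tested), edgeR recovered 84% with 2.33% false calls, and DESeq2 1.42.0 82.5% with 2.37%. The changed genes were few, well counted and changed 2-fold or 4-fold, with the same model of spread in every group. These rates therefore do not measure the false calls of the real comparison, with its smaller changes and its uneven LPS library 1.

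The members of the gene lists and the comparisons were chosen with earlier results of these data known. Named genes were Irf5, Lyz2 and Ghitm, the 12 per direction with the largest fold change among called genes with at least 5 CPM in the higher group and no overlap between the groups, up to 4 called members of each list per direction and its 2 most abundant members not called, up to 6 genes per direction with the smallest p for a called difference between genotypes or times (at least 1 CPM), and genes in runs. Alternatives were DESeq2, its size factors (RLE) in edgeR, no filter, a fit of the compared libraries alone, and leaving out each library. Promoter windows came from RefSeq (GRCm38.p6). Some genes of the lists that the rule would name are not reported here.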

Additional observations from a re-analysis of the deposited data

Results flagged for a closer look

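The following results stood out because the effect of LPS in the libraries labelled KO differed between 24 h and 2 h by a test of the difference itself (edgeR's quasi-likelihood test, adjusted p under 0.05). The effect was higher at 24 h in 1667 genes and lower in 2213. Among the genes with the smallest p whose effect was lower at 24 h, the difference was -3.61 log2 units in Tnfaip3, -3.68 in Sdc4, which encodes the surface proteoglycan syndecan 4, -2.47 in Tnfaip2 and -5.01 in Ccl4. It was -3.79 in Ppp1r15a, which encodes GADD34 of the stress response, and -3.44 in Hivep3. Sdc4 rose by 4.09 ± 0.076 at 2 h and had a log2 fold change of 0.41 at 24 h, and Ppp1r15a of 3.67 and -0.12.

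Among those whose effect was higher at 24 h, the difference was 3.43 in H2-T22, a class Ib histocompatibility gene, 3.05 in C3, the central complement component, 3.8 in Fcgr1, the high-affinity IgG receptor, and 2.7 in Lgals3bp. It was 2.15 in Ms4a6c and 1.9 in Ms4a6d, neighbouring members of 1 family whose reads may be shared. Fcgr1 was at 62.8, 43.1 and 50.6 CPM in Control and 47.8, 40.7 and 44.3 CPM with LPS at 2 h, and at 40.5 ± 4.78 and 482 ± 62.9 CPM at 24 h (SD, n = 3). C3 was at 231, 193 and 211 and 384, 379 and 381 CPM at 2 h, and at 207 ± 11.3 and 3097 ± 22.9 CPM at 24 h. Ms4a6d was called higher at 2 h (0.21 ± 0.069), and without LPS library 2 that call was lost (adjusted p = 0.166), as it was without LPS library 3 or Control library 1 or 2 (0.0622 to 0.13).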

How the results depend on the processing

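Among the 213 genes named, 0 calls at 2 h changed direction under the 10 settings. In every setting with a value for the gene, 192 kept their side of the threshold. Many of these genes were chosen for a large called change in the main fit. The settings refit the same libraries, so this stability was partly built in. With only the compared libraries in the fit the genes lowered were 688 (169 by at least 2-fold), and an unadjusted p under 0.05 with a log2 fold change over 1 called 1005 genes. For the difference between KO and WT, DESeq2 called 1 gene, lower in KO. Without the filter 43 were called, 33 higher and 10 lower, 11 and 1 of them by at least 2-fold, and 42 of the 43 were also tested in the main fit. Gm10800, Col1a1, Fn1, Thbs1 and Cd74 came first by p. Col1a1 and Fn1 stood at 92.5 and 180 CPM in LPS library 2 of KO, and at 0.758 to 0.864 and 5.4 to 6.06 CPM in LPS libraries 1 and 3. Leaving out 1 library called 0 to 3 genes (0 to 2 higher, 0 to 1 lower, 0 to 2 by at least 2-fold). The 3 were called without LPS library 2 of KO (Cd300lb, Hps6 and Gm10800). Of the oxidative phosphorylation genes, 3 by edgeR, 1 was called without the filter and 0 to 5 on leaving out 1 library, 0 without Control library 2 and 5 without LPS library 2. Of the long noncoding RNAs, 2 were called in place of 1 without the filter, with only the compared libraries and without Control library 3. With genes raised at least 2-fold, kappaB-like matches were in 12.5% of windows. Before the start alone, matches were in 5.27% (kappaB-like), 6.44% (interferon response element), 4.45% (AP-1) and 2.6% (cyclic AMP response element) of all windows. Apart from the construction of these settings (fewer genes or libraries), the cause was not tested. Depth limits genes near 3 counts per library, above all in LPS library 1. No paired analysis was possible because the columns of the count table carry no replicate numbers.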
